A study of Mus musculus with 16 samples.

Results

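The interferon regulatory factors (IRFs) and signal transducers and activators of transcription (STATs) are DNA-binding proteins that carry interferon and cytokine signals to the nucleus. Accessible chromatin was followed around 8 of their genes in mouse prostate organoids: Irf1, Irf2, Irf7, Irf8, Irf9, Stat2, Stat3 and Stat5a. The 8 genes were given as a set. Overlapping peaks of the 16 libraries (1 bp or more) formed 86616 merged regions, of which 59 had the mm10 body of one of the 8 as their nearest protein-coding gene within 100 kb. Each region was scored as called (a peak present) or not called in each library.

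The assay was ATAC-seq, which marks accessible DNA by where a transposase can insert adapters, and the cultures were organoids that keep prostate epithelial cells in 3 dimensions. SPOPmut organoids carried a mutation of SPOP, a protein that brings substrates to a ubiquitin ligase and is often mutated in prostate cancer, and Control organoids were described as normal. Each genotype received dihydrotestosterone (DHT, a potent natural androgen) at 10 nM or the ethanol vehicle (EtOH), given for 24 h in organoid medium that lacked the growth factor mEGF. The groups were SPOPmut with DHT, SPOPmut with EtOH, Control with DHT and Control with EtOH, 4 libraries each, and every library also carried the label sgNT. The labels name neither the SPOP allele nor what drives it, nor whether replicates were separate cultures or animals, which means that p-values here describe the spread among these libraries alone.

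In the classical scheme an interferon or cytokine receptor activates Janus kinases (JAKs), which phosphorylate STAT proteins. STAT2 and IRF9 act in the complex ISGF3, which binds the interferon-stimulated response element (ISRE), whereas STAT dimers such as those of STAT3 and STAT5 bind the gamma-activated site (GAS). IRF1 and IRF7 are mostly activators, IRF2 mainly opposes IRF1, and IRF8 is best known from myeloid and B cells. STAT3 carries signals of the interleukin 6 family in epithelia, and STAT5A those of prolactin and growth hormone.

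The lists held 64192 ± 4832 peaks in SPOPmut with DHT, 63398 ± 3166 in SPOPmut with EtOH, 61014 ± 2406 in Control with DHT and 62302 ± 3421 in Control with EtOH (mean ± SD, n = 4), with a range of 57245 to 69644 over the 16 libraries. Read depth is unknown, because peak lists hold no read counts. Markers were checked as called regions at their genes. Over all tested genes 19.4% had more and 12.1% fewer called regions in SPOPmut than in Control (exact permutation test per gene, adjusted p under 0.05). Of the luminal epithelial genes 5 of 9 tested had more called regions in SPOPmut, with sums of 69 to 75 in SPOPmut with DHT and 65 to 71 in SPOPmut with EtOH, against 58 to 61 in Control with DHT and 53 to 63 in Control with EtOH. Of the basal genes 2 had more and 1 fewer of 7. At the immune genes 6 of 8 start windows were called in 0 libraries, 5 of 15 genes had no region assigned, and of 6 tested 1 (Ptprc) had more called regions in SPOPmut. Summed over the immune genes, libraries held 15 to 19 called regions in SPOPmut with DHT and 14 to 19 in SPOPmut with EtOH, against 11 to 14 in Control with DHT and 14 to 17 in Control with EtOH. Endothelial genes had 3 lower of 5, with sums of 23 to 31 in SPOPmut with DHT and 26 to 33 in SPOPmut with EtOH, against 35 to 39 in Control with DHT and 38 to 41 in Control with EtOH. Stromal genes had 1 lower of 6. Listed start windows were called in 0 libraries at 3 of 3 endothelial and 3 of 4 stromal genes. At luminal and basal genes this held for 0 of 4 each. The part of these marker shifts in any result below was not tested, and in bulk libraries fewer cells of a type and less accessible chromatin per cell cannot be told apart.

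The sequences at the gene starts show which of the genes carry in their own promoter the letters of the elements that IRFs and STATs bind. The windows run from 250 bases before to 50 after the start (RefSeq, GRCm38.p6, the patch release of mm10), are printed 5′ to 3′ on the gene's strand, and have GAS letters (TTCNNNGAA) and ISRE letters (GAAANNGAAA, either strand) in capitals. The windows are Irf1 at chr11:53769764-53770063 (plus strand), Irf2 at chr8:46739495-46739794 (plus), Irf8 at chr8:120736108-120736407 (plus), Stat2 at chr10:128270248-128270547 (plus) and Stat3 at chr11:100939491-100939790 (minus), the last being shown because Stat3 is the gene whose calls differed.
Irf1: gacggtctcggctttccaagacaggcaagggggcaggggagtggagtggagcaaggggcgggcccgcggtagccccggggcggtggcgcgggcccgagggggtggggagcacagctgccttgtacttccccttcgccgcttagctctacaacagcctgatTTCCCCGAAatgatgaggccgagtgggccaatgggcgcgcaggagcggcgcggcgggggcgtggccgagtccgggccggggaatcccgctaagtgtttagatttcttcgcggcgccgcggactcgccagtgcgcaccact
Irf2: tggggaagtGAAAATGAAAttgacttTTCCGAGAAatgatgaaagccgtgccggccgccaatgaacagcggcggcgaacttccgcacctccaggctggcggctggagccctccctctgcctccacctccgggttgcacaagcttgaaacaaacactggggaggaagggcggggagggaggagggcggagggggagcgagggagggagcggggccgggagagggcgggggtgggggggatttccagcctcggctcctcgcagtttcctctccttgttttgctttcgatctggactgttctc
Irf8: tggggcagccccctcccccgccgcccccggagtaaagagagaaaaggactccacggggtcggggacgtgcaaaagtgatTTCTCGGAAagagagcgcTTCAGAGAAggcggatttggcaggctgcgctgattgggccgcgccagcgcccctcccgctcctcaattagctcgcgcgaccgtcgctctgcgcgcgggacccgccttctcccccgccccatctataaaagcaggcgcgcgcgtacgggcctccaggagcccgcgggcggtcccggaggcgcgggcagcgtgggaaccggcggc
Stat2: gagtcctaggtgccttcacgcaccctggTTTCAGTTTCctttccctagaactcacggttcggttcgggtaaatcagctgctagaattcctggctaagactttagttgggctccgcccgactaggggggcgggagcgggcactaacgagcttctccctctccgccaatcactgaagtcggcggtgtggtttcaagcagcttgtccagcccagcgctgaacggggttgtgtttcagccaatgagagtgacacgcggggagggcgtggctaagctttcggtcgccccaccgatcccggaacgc
Stat3: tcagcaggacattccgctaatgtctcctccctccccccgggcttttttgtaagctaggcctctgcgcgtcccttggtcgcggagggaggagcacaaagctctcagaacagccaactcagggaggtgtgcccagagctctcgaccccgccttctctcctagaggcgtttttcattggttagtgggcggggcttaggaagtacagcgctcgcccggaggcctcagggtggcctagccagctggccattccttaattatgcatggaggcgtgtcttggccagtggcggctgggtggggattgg
GAS letters stood in 3 of the 12 windows listed for the 8 genes, each at a different gene. In the Irf1 window they began 90 bases before the start (TTCCCCGAA) and in the Irf2 window 224 bases before it (TTCCGAGAA). The Irf8 window held a pair, 171 and 153 bases before the start (TTCTCGGAA and TTCAGAGAA). ISRE letters stood in 2 of the 12 windows. They began 241 bases before the start in Irf2 (GAAAATGAAA) and 222 bases before it in Stat2 (TTTCAGTTTC, the other strand). Among 32851 windows of all genes, 8.30% held GAS letters and 3.44% held ISRE letters. The hexamer AGAACA of the androgen response element occurred in the Irf2 and Stat3 windows and in 19.0% of all windows. AP-1 letters (TGANTCA, 7.81% of all windows) and forkhead letters (TGTTTAC, 3.65%) were found in none of the 12 windows listed for the 8 genes. A match describes letters only and shows no binding.

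At 7 of the 8 genes at least 1 listed start window was called in all 16 libraries. At Stat5a this was the second of its listed starts, and the first (chr11:100859406-100859705) was called in 0. The share of all genes with a start called in every library was not counted. Such starts stood at 9 of 11 receptor, 4 of 4 kinase, 5 of 5 inhibitor and 5 of 5 sensor genes of the same pathway. At other STATs and other IRFs the count was 2 of 3 each, at interferon targets 8 of 15 and at ligands 1 of 5. The start region of Stat3 (chr11:100938050-100940258, 2209 bp) ranked highest, with a median within-list percentile of 98.2 for the caller's -log10 p at the summit. This percentile was computed here by ranking the authors' -log10 p within each library's own list, and it is used as a description. The start regions of Irf1, Stat5a, Irf2, Irf9 and Irf7 had medians of 91.0, 87.1, 86.3, 78.6 and 45.0, so that the Irf7 promoter, the gene of the main amplifier of type I interferon, was called in every library but at lower percentiles (28.0 to 60.4). The Stat2 start lay under a region called in all 16 libraries (chr10:128269984-128271149, median percentile 94.2) that the assignment gave to the overlapping shorter gene Apof, which left Stat2 with 0 regions. The exception was Irf8: both of its start windows, the one with the GAS pair included, were called in 0 libraries. The only peak inside the Irf8 body was called in 1 library (Control with EtOH, replicate 4) at percentile 0.5 of its list.

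**Figure D1:**
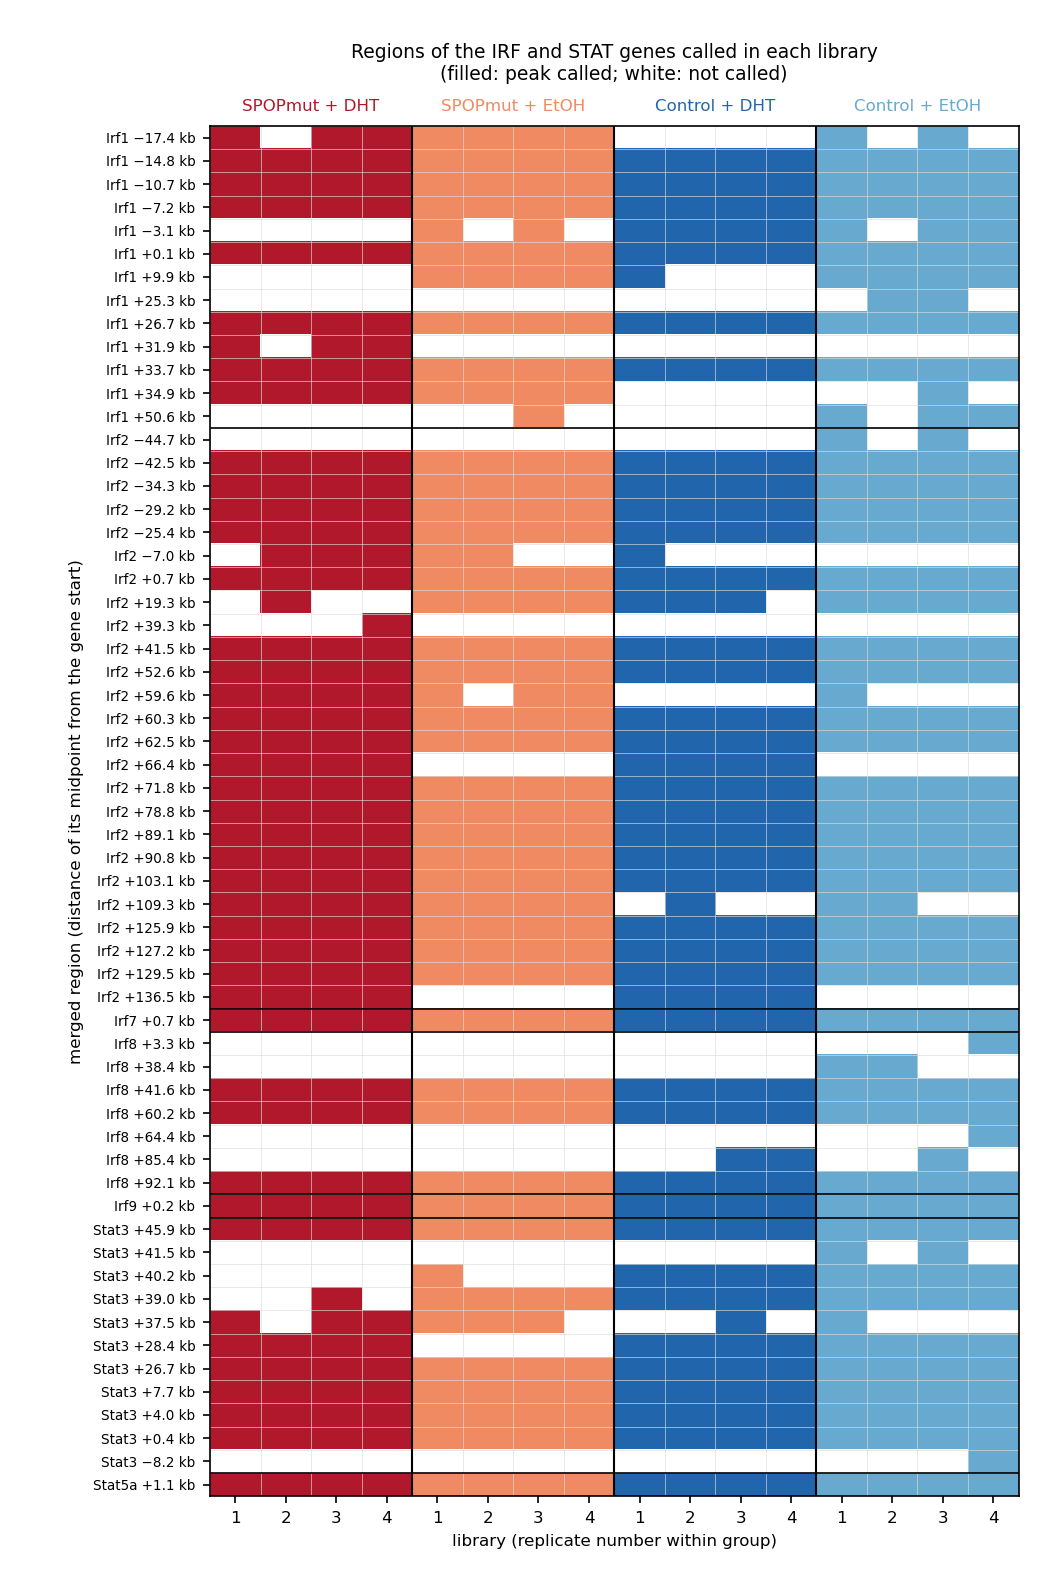
Each row is a merged region named by its gene and the distance of its midpoint from the gene start in kb, each column a library, and a filled cell a called peak. Most rows are filled across all 16 libraries, and only some of the partly filled rows at Irf1, Irf2 and Stat3 are described in the text.

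Of the 59 regions, 55 were called in at least 2 libraries and could be tested. Irf2 had 24 tested regions over a gene of 107.714 kb, Irf1 had 13, Stat3 10, Irf8 5, and Irf7, Irf9 and Stat5a had 1 each. All 16 libraries called 34 of the 55 (61.8%), against 48.9% of the 80352 tested regions of the genome, and the other 21 varied. Constant regions were wider (median 958 bp) than varying ones (448 bp), as they were over the genome (1037 and 458 bp). A merged region spans all the peaks that formed it, so calls in more libraries can by themselves make it wider. The highest ranked region away from a start was 129.466 kb after the Irf2 start (chr8:46868146-46870276, median percentile 96.4), 21753 bp past the end of the gene and called in every library. Called regions at the 8 genes together numbered 43.5 ± 1.29 in SPOPmut with DHT, 43.0 ± 1.83 in SPOPmut with EtOH, 42.2 ± 0.957 in Control with DHT and 44.5 ± 3.51 in Control with EtOH (mean ± SD, n = 4), with overlapping ranges.

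The first comparison was between genotypes. Stat3, the only 1 of the 4 testable genes to pass, had fewer called regions in SPOPmut. Its libraries held 7, 6, 8 and 7 called regions in SPOPmut with DHT against 8, 8, 9 and 8 in Control with DHT, and 8, 7, 7 and 6 in SPOPmut with EtOH against 10, 8, 9 and 8 in Control with EtOH. In each treatment 1 SPOPmut library reached the lowest Control value of 8 and the rest lay below it. The difference was -1.5 called regions (exact permutation within treatment p = 0.00490, Benjamini-Hochberg adjusted p = 0.0211 over 11213 genes). Fewer regions were called in SPOPmut at 12.1% of all genes tested and more at 19.4%, so 1 lower and 0 higher of 4 genes do not set the group apart. The adjusted p stayed between 0.00220 and 0.0476 under 9 other settings. Chromosome 11 as a whole held 7.14% ± 0.0525 of the called regions in SPOPmut and 7.51% ± 0.0817 in Control (SD, n = 8 each), and the Stat3 difference was -1.38 after subtracting the call rate of the chromosome in each library.

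**Figure D2:**
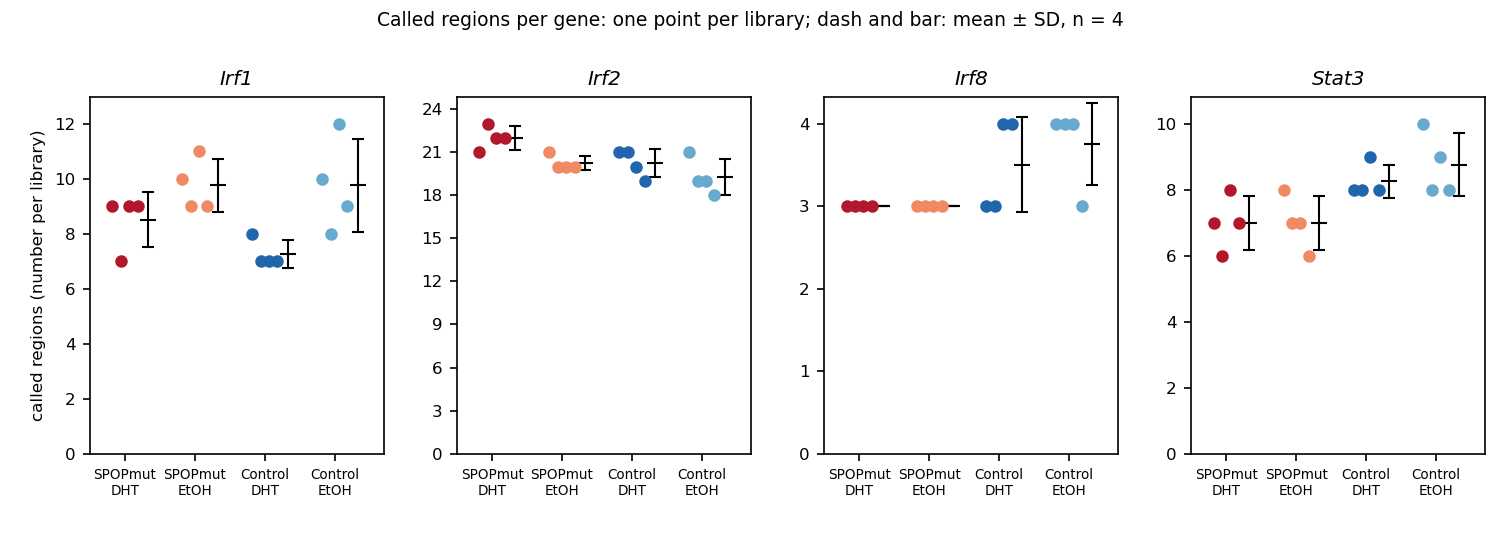
Called regions per library (points) with mean ± SD (n = 4) for the 4 genes with at least 2 tested regions. At Stat3 the SPOPmut libraries lie at 6 to 8 and the Control libraries at 8 to 10, meeting at 8, and the SPOPmut and Control groups also overlap at Irf1, Irf2 and Irf8.

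The tested Stat3 regions that varied lay deep inside the gene body, 28.4 to 41.5 kb after the start. The region 40.2 kb after the start (chr11:100898934-100899806, 873 bp) was called in 0 of 4 libraries of SPOPmut with DHT and 1 of 4 of SPOPmut with EtOH, against 4 of 4 in both Control groups. It was 1 of 55 tested regions that were lower in SPOPmut (exact stratified p = 0.00204, adjusted p = 0.0292), where 3.23% of all regions were. In the Control libraries it was no marginal peak, standing at percentiles 42.5 to 46.3 with DHT and 50.4 to 58.5 with EtOH, and the lone SPOPmut call stood at 5.3. A neighbour 39.0 kb after the start (chr11:100900351-100900911) was called in 1 of 4 libraries of SPOPmut with DHT and in 4 of 4 of every other group (adjusted p = 0.545 for genotype by the exact stratified test). A region 37.5 kb after the start, called in 3 of 4 libraries of each SPOPmut group and 1 of 4 of each Control group, ran the other way and did not pass (adjusted p = 0.561, exact stratified test). The Stat3 start and the regions at 4.0, 7.7, 26.7 and 45.9 kb were called in all 16 libraries.

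A further Stat3 region had another pattern. The region 28.4 kb after the start (chr11:100910795-100911572) was called in 4 of 4 libraries of SPOPmut with DHT and 0 of 4 of SPOPmut with EtOH, against 4 of 4 in both Control groups. Its percentiles were 15.3 to 38.4 in SPOPmut with DHT, 56.3 to 63.7 in Control with DHT and only 0.9 to 7.2 in Control with EtOH, so the EtOH calls of Control were among the weakest of their lists. As a share of libraries calling it, SPOPmut minus Control was -0.5 and DHT minus EtOH +0.5. Under 6 other settings these ran from -0.5 to -0.125 and from +0.375 to +0.875. Neither passed under any of them. For this region the test of a genotype difference in the DHT effect gave an exact permutation p of 0.0286 (adjusted p = 0.594). Because every Control library called the region, no smaller p was possible for it. Across all regions the smallest unadjusted p by that permutation test was 0.00204 and 0% passed. The test therefore cannot decide whether the DHT effect differed here.

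At Irf1 the gene count did not pass for genotype (+0.62 called regions, exact permutation p = 0.395, adjusted p = 0.641), but single regions ran in opposite directions. The region 34.9 kb after the Irf1 start (chr11:53804576-53805203, 628 bp), 26515 bp past the end of the gene, was called in 4 of 4 libraries of both SPOPmut groups, against 0 of 4 in Control with DHT and 1 of 4 in Control with EtOH. It was the only 1 of 55 tested regions that was higher in SPOPmut (exact stratified p = 0.00204, adjusted p = 0.0292), or 1.82% against 3.76% of all regions. Its calls stood at percentiles 22.9 to 35.7 in SPOPmut and at 4.2 in the 1 Control library. Upstream, the region 17.4 kb before the start was called in 3 and 4 libraries of SPOPmut with DHT and EtOH and in 0 and 2 of Control with DHT and EtOH, and did not pass (adjusted p = 0.169, exact stratified test). The region 3.1 kb before the start (chr11:53766761-53767021) was called in 0 and 2 libraries of SPOPmut with DHT and EtOH and in 4 and 3 of Control with DHT and EtOH (adjusted p = 0.254, exact stratified test).

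Irf2 had more called regions in SPOPmut without passing. Its libraries held 21, 23, 22 and 22 called regions in SPOPmut with DHT against 21, 21, 20 and 19 in Control with DHT, and 21, 20, 20 and 20 in SPOPmut with EtOH against 21, 19, 19 and 18 in Control with EtOH. The groups overlap at 21 with DHT and over 20 to 21 with EtOH. The difference was +1.38 (exact permutation p = 0.0220, adjusted p = 0.0669), and it passed without replicate 1 of SPOPmut with DHT (adjusted p = 0.0259), replicate 1 of Control with EtOH (0.00781) or replicate 3 of Control with EtOH (0.0204). Chromosome 8, which carries Irf2 and Irf8, held a smaller share of called regions in SPOPmut (4.92% ± 0.0210) than in Control (5.40% ± 0.0268, SD, n = 8 each), and with the call rate of the chromosome subtracted Irf2 passed the exact permutation test at +2.41 (adjusted p = 0.00691). The largest contribution was a region 59.6 kb after the start, inside the gene (chr8:46799226-46799515), called in 4 and 3 libraries of SPOPmut with DHT and EtOH, against 0 and 1 of Control with DHT and EtOH (exact stratified p = 0.0135, adjusted p = 0.123).

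Irf8 had 3 called regions in all 8 SPOPmut libraries, against 3, 3, 4 and 4 in Control with DHT and 4, 4, 4 and 3 in Control with EtOH. The difference was -0.62 (exact permutation p = 0.0306, adjusted p = 0.0793), and it was 0 once all lists were held to the length of the shortest. It passed the exact permutation test without replicate 1 of Control with DHT (adjusted p = 0.0348), replicate 2 of Control with DHT (0.0345) or replicate 4 of Control with EtOH (0.0230). The last of these libraries held 5 called regions at Irf8 when regions called in 1 library were kept. The 3 constant regions lay 41.6, 60.2 and 92.1 kb after the Irf8 start, all past the gene, at median percentiles 51.2, 57.3 and 42.2, while the start itself was not called.

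**Figure D3:**
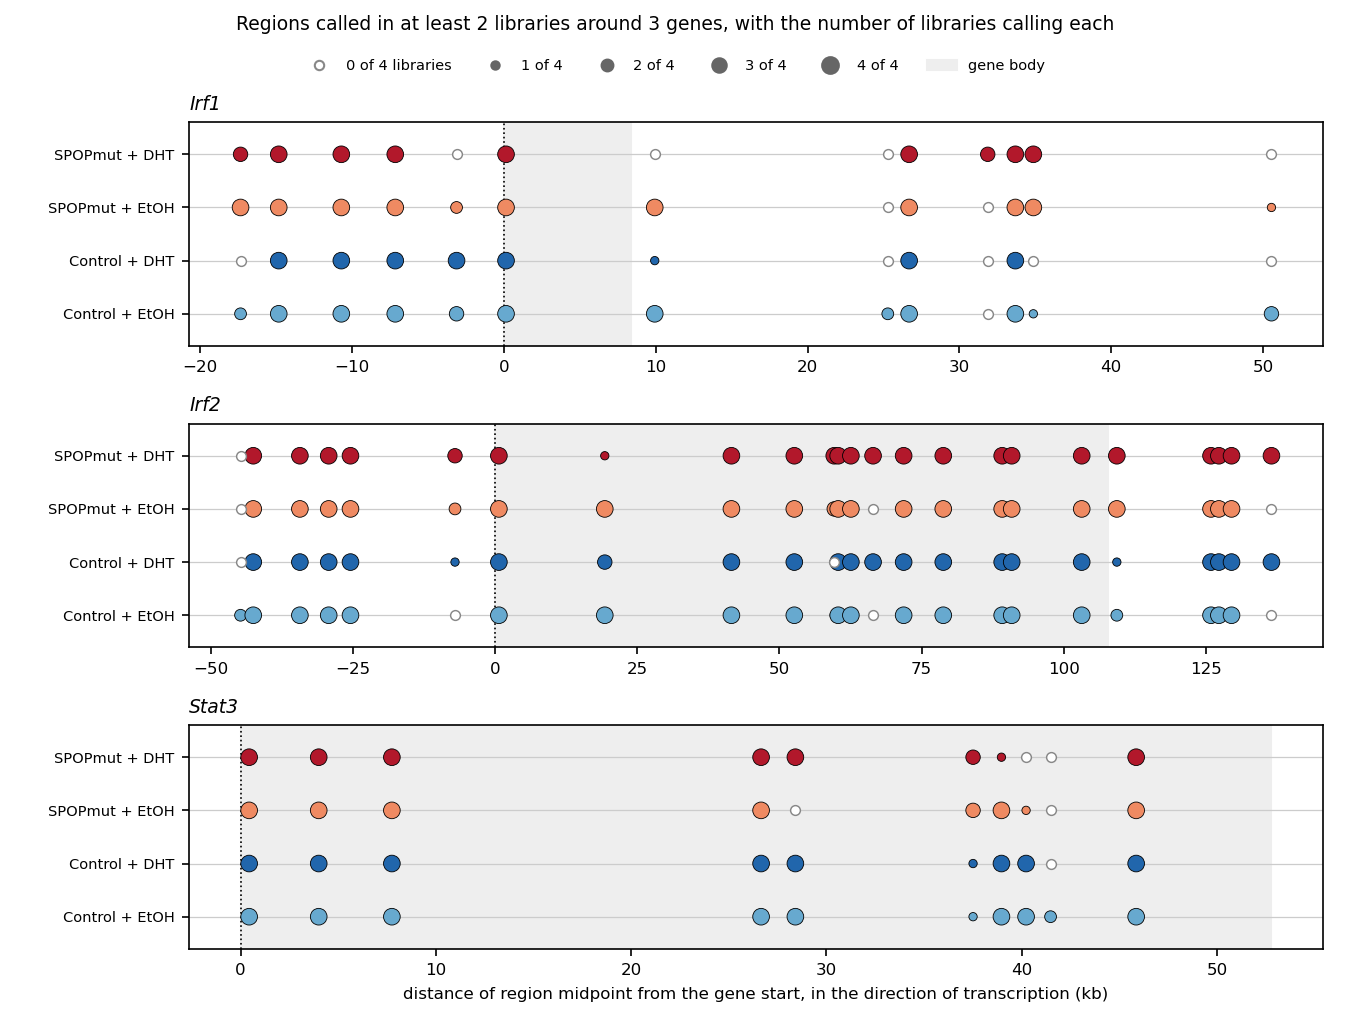
Tested regions by distance of their midpoint from the gene start (kb) for Irf1, Irf2 and Stat3, with 1 row per group; point size gives the number of libraries of 4 that called the region and open points mean 0. The regions that passed a test lie away from the starts, at 34.9 kb for Irf1, at 66.4 and 136.5 kb for Irf2, and at 40.2 kb for Stat3.

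The second comparison was between DHT and EtOH. No gene passed among the 4 testable ones, where 5.41% of all genes were higher with DHT and 3.14% lower after adjustment. Irf1 and Irf2 had an unadjusted exact permutation p under 0.05. The share of all genes at that unadjusted limit was not counted, so these 2 are not read against a background. Irf1 was the nearest to passing. Its libraries held 9, 7, 9 and 9 called regions in SPOPmut with DHT against 10, 9, 11 and 9 in SPOPmut with EtOH, and 8, 7, 7 and 7 in Control with DHT against 10, 8, 12 and 9 in Control with EtOH. The DHT and EtOH groups met at 9 in SPOPmut and at 8 in Control. The difference was -1.88 (exact permutation p = 0.00816, adjusted p = 0.0714). It passed the exact permutation test at -2.0 with all lists held to the length of the shortest (adjusted p = 0.00874) and without replicate 2 of SPOPmut with EtOH (0.0410), replicate 4 of SPOPmut with EtOH (0.0411) or replicate 2 of Control with EtOH (0.0429).

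The Irf1 region that followed DHT most closely lay 9.9 kb after the start and 1573 bp past the end of the gene (chr11:53779733-53780161, 429 bp). It was called in 0 of 4 libraries of SPOPmut with DHT against 4 of 4 of SPOPmut with EtOH, and in 1 of 4 of Control with DHT against 4 of 4 of Control with EtOH. Its calls were weak, at percentiles 17.0 to 30.6 in SPOPmut with EtOH and 7.2 to 23.4 in Control with EtOH, and at 3.5 in the 1 Control library with DHT. It did not pass (exact stratified p = 0.00204, adjusted p = 0.0717), although it did without replicate 1 of Control with DHT (adjusted p = 0.0217) and with all lists held to the length of the shortest (adjusted p = 0.0212). By that test 0.259% of all regions were called less often with DHT, and 0 of the 55 were by the exact stratified test (1 at an unadjusted p under 0.05, a share not counted over all regions).

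Irf2 held the 2 regions of the 55 that were called more often with DHT, or 3.64% against 1.51% of all regions. Both were called in 4 of 4 libraries with DHT and 0 of 4 with EtOH in SPOPmut, and likewise in Control (exact stratified p = 0.000408, the smallest the test can give, adjusted p = 0.0231). The first lay inside the gene, 66.4 kb after the start (chr8:46805995-46806390, 396 bp), with calls at percentiles 39.5 to 46.9 in SPOPmut with DHT and 7.6 to 40.5 in Control with DHT. The other lay 136.5 kb after the start and 28772 bp past the end of the gene (chr8:46875755-46876705, 951 bp), with 82.4 to 85.1 in SPOPmut with DHT and 17.8 to 34.0 in Control with DHT. Irf2 was its nearest gene, and the next nearest, Enpp6, lay 62.967 kb away. At a signal area of at least 400 in place of just over 200, neither passed the exact stratified test (adjusted p = 0.152 for the first and 0.0666 for the other). With calls requiring peaks over at least 50% of the region the distal one did not pass the exact stratified test (adjusted p = 0.243). As a gene Irf2 had +1.38 called regions with DHT (exact permutation p = 0.0249, adjusted p = 0.144), which passed without replicate 1 of Control with EtOH (+1.83, adjusted p = 0.0308). Stat3 (-0.25) and Irf8 (-0.12) had adjusted p = 1 for DHT by the exact permutation test.

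Stat5a had a single region, 1.1 kb into the gene (chr11:100859860-100860974), called in all 16 libraries, and so no gene test. Stat5b, the gene of the closely related second STAT5 protein, starts next to it in the opposite direction, and its regions were assigned to Stat5b. A region 4.9 kb before the Stat5a start and inside the Stat5b body (chr11:100853946-100854991) was called in all 4 DHT libraries and none of the EtOH libraries of each genotype (exact stratified p = 0.000408, adjusted p = 0.0231), at a median percentile of 85.5. A region 2.4 kb before the start (chr11:100856762-100857174) was called in the 4 libraries of Control with DHT alone. When regions were counted within 10 kb of each gene, Stat5a held 4, 4, 4 and 4 called regions in SPOPmut with DHT against 3, 3, 3 and 3 in SPOPmut with EtOH, and 5, 5, 5 and 5 in Control with DHT against 3, 3, 3 and 3 in Control with EtOH. By that count it passed for DHT (+1.5, exact permutation p = 0.000408, adjusted p = 0.0147). Irf7 with 2 and Stat2 with 3 called regions in every library did not vary under that count.

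**Figure D4:**
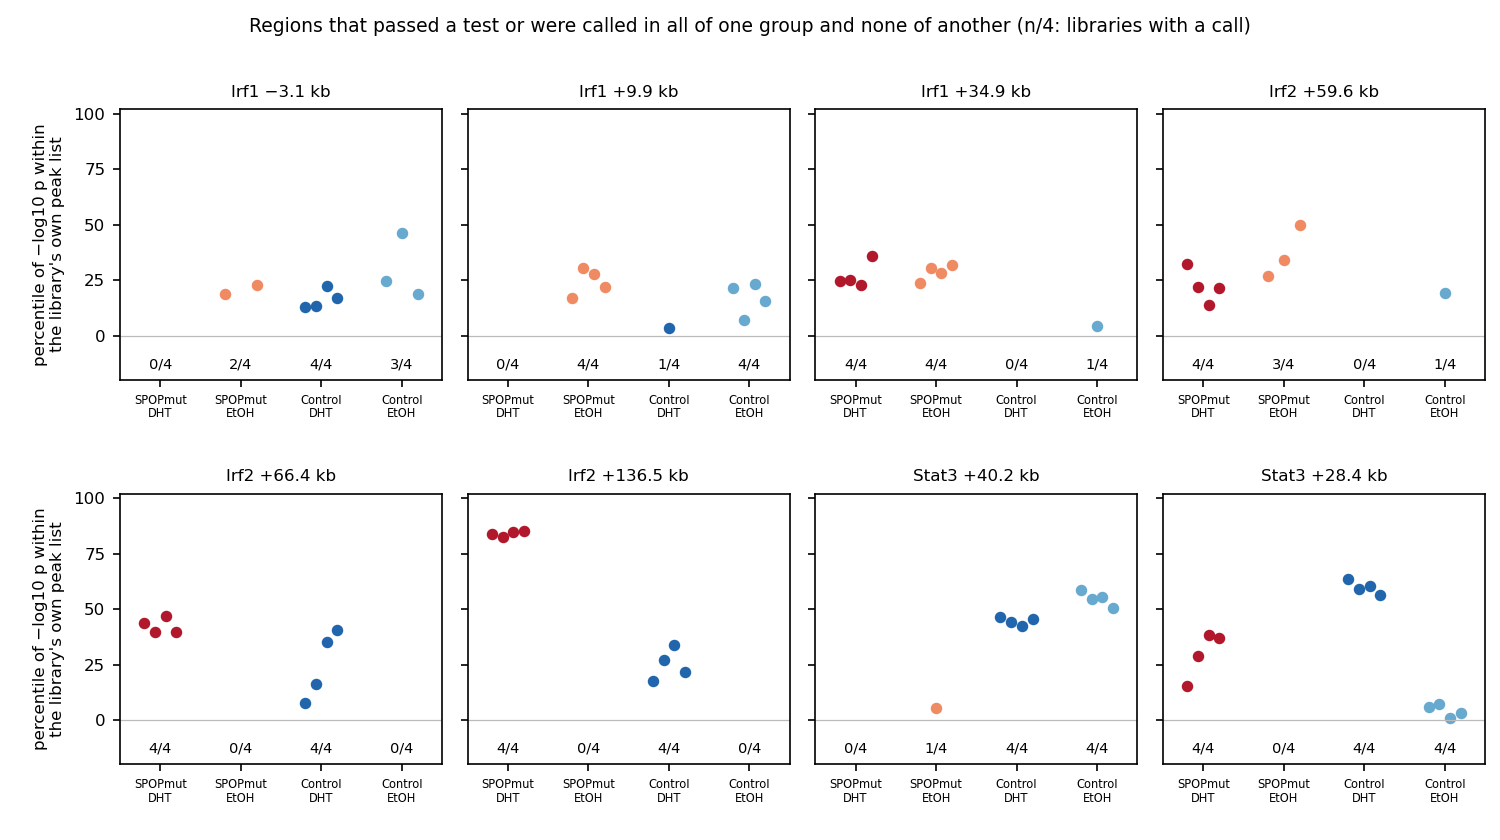
Percentile of the caller's -log10 p within each library's own list (points) for the 8 regions that passed a test or separated 2 groups completely, with the number of libraries calling each below the points. The distal Irf2 region at 136.5 kb stands above percentile 80 in all libraries of SPOPmut with DHT and below 40 in those of Control with DHT, with 0 calls in EtOH.

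Complete separations, with 4 of 4 libraries calling a region in one group and 0 of 4 in the other, were few, and 4 against 4 libraries allow no smaller p than 0.0286. SPOPmut against Control with DHT gained 2 regions (Irf1 at 34.9 kb and Irf2 at 59.6 kb), where 6.41% of all regions were gained, and lost 2 (Irf1 at -3.1 kb and Stat3 at 40.2 kb), where 4.22% were lost. SPOPmut against Control with EtOH gained 0, where 4.84% of all regions were gained, and lost 1 (Stat3 at 28.4 kb), where 4.36% were lost. The Control calls behind that loss stood at percentiles 0.9 to 7.2 of their lists. DHT against EtOH in SPOPmut gained 3 (the DHT pair at Irf2 and Stat3 at 28.4 kb), where 4.7% of all regions were gained, and lost 1 (Irf1 at 9.9 kb), where 1.98% were lost. In Control DHT gained 2 (the Irf2 pair), where 2.93% of all regions were gained, and lost 0, where 1.96% were lost. Counts of 0 to 3 of 55 are shares of 0 to 5.45%, near those of all regions.

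The DHT effect was not shown to differ between genotypes at any of the 4 genes. The difference in effect, SPOPmut minus Control, was +1.25 called regions at Irf1, +0.75 at Irf2, +0.50 at Stat3 and +0.25 at Irf8, with exact permutation p of 0.533 at Irf1, 0.670 at Irf2, 0.751 at Stat3 and 1 at Irf8. Over all genes 0% passed this permutation test (smallest adjusted p = 0.352), although 7.13% had an unadjusted p under 0.05. The test shuffles DHT and EtOH within each genotype, so a DHT effect shared by both genotypes can raise its p. With the mean DHT effect subtracted first, 0 of the 4 genes passed. The gene on another chromosome whose counts over the 16 libraries were most like those of Stat3 was 1700011L22Rik (Pearson r = 0.892 over 16 libraries, which share genotype and list length), and no gene reached 0.9.

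Other genes of the interferon and JAK-STAT pathway were counted by role for comparison. Of 64 such genes, 62 were matched and 43 had at least 2 tested regions. In SPOPmut against Control 7 of the 43 had more and 8 fewer called regions, where 19.4% of all genes had more and 12.1% fewer. With DHT against EtOH 3 had more and 2 fewer, where 5.41% of all genes had more and 3.14% fewer. These counts lie near the shares of all genes and set the pathway apart in neither comparison, with medians of 0 and -0.12 called regions over the 43 and 0 and 0 over all genes. Each gene named below as higher, lower or differing passed the exact permutation test after adjustment over all genes.

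Among the ligands Il15 (-8.50), Ifnb1 (+1.25) and Il6 (+1.25) differed by genotype. Il15, a cytokine of lymphocytes, had 0 called regions in both SPOPmut groups, against 9.0 ± 0 in Control with DHT and 8.0 ± 0 in Control with EtOH (SD, n = 4). Among 11 tested receptor genes 3 were higher (Ifngr2, Il10rb and Osmr) and 2 lower (Il6st and Lifr) in SPOPmut, and 2 were higher (Ifngr1 and Il6ra) and 1 lower (Il6st) with DHT, counts too small to be read against those shares. Il6st, which encodes the shared subunit gp130, had 3.0 ± 0 called regions in SPOPmut with DHT against 3.75 ± 0.50 in SPOPmut with EtOH, and 4.0 ± 0 in Control with DHT against 5.5 ± 0.577 in Control with EtOH (exact permutation test, genotype -1.38, adjusted p = 0.00325, and DHT -1.12, adjusted p = 0.0288). Lifr, the leukemia inhibitory factor receptor, was lower in SPOPmut (-2.62) and Osmr, the oncostatin M receptor, higher (+2.25), each with adjusted p = 0.00325 by the exact permutation test.

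Below the receptors, Jak2 was the lower 1 of 2 tested kinase genes in SPOPmut (-1.5, exact permutation with adjusted p = 0.0237). Of the other STATs, Stat5b was higher with DHT by the exact permutation test (+2.0, adjusted p = 0.0256) and Stat4 lower (-1.38, adjusted p = 0.0288), and none of 4 differed by genotype. Of the other IRFs Irf5 was lower in SPOPmut by the exact permutation test (-1.5, adjusted p = 0.0170). Among the inhibitors Socs3, which dampens gp130 signalling, was lower (-1.12) and Ptpn2, a phosphatase of JAKs and STATs, higher (+0.88), both with adjusted p = 0.0456 by the exact permutation test. The RNA sensor gene Ifih1 (-1.38, adjusted p = 0.00325) and the interferon-induced gene Ifit3 (-1.38, adjusted p = 0.0418) were lower in SPOPmut by the exact permutation test. Ifit3 had 0 called regions in SPOPmut with DHT and 0.25 ± 0.50 in SPOPmut with EtOH, against 0.75 ± 0.957 in Control with DHT and 2.25 ± 0.957 in Control with EtOH (SD, n = 4). Of the 20 interferon target genes only 6 could be tested, and 7 had no region assigned to them. Among these 7, the start windows of Ifit1, Cxcl10 and Psmb9 were called in all 16 libraries, under regions assigned to other genes, and those of Isg15 and Oas1a in 1 library each.

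**Figure D5:**
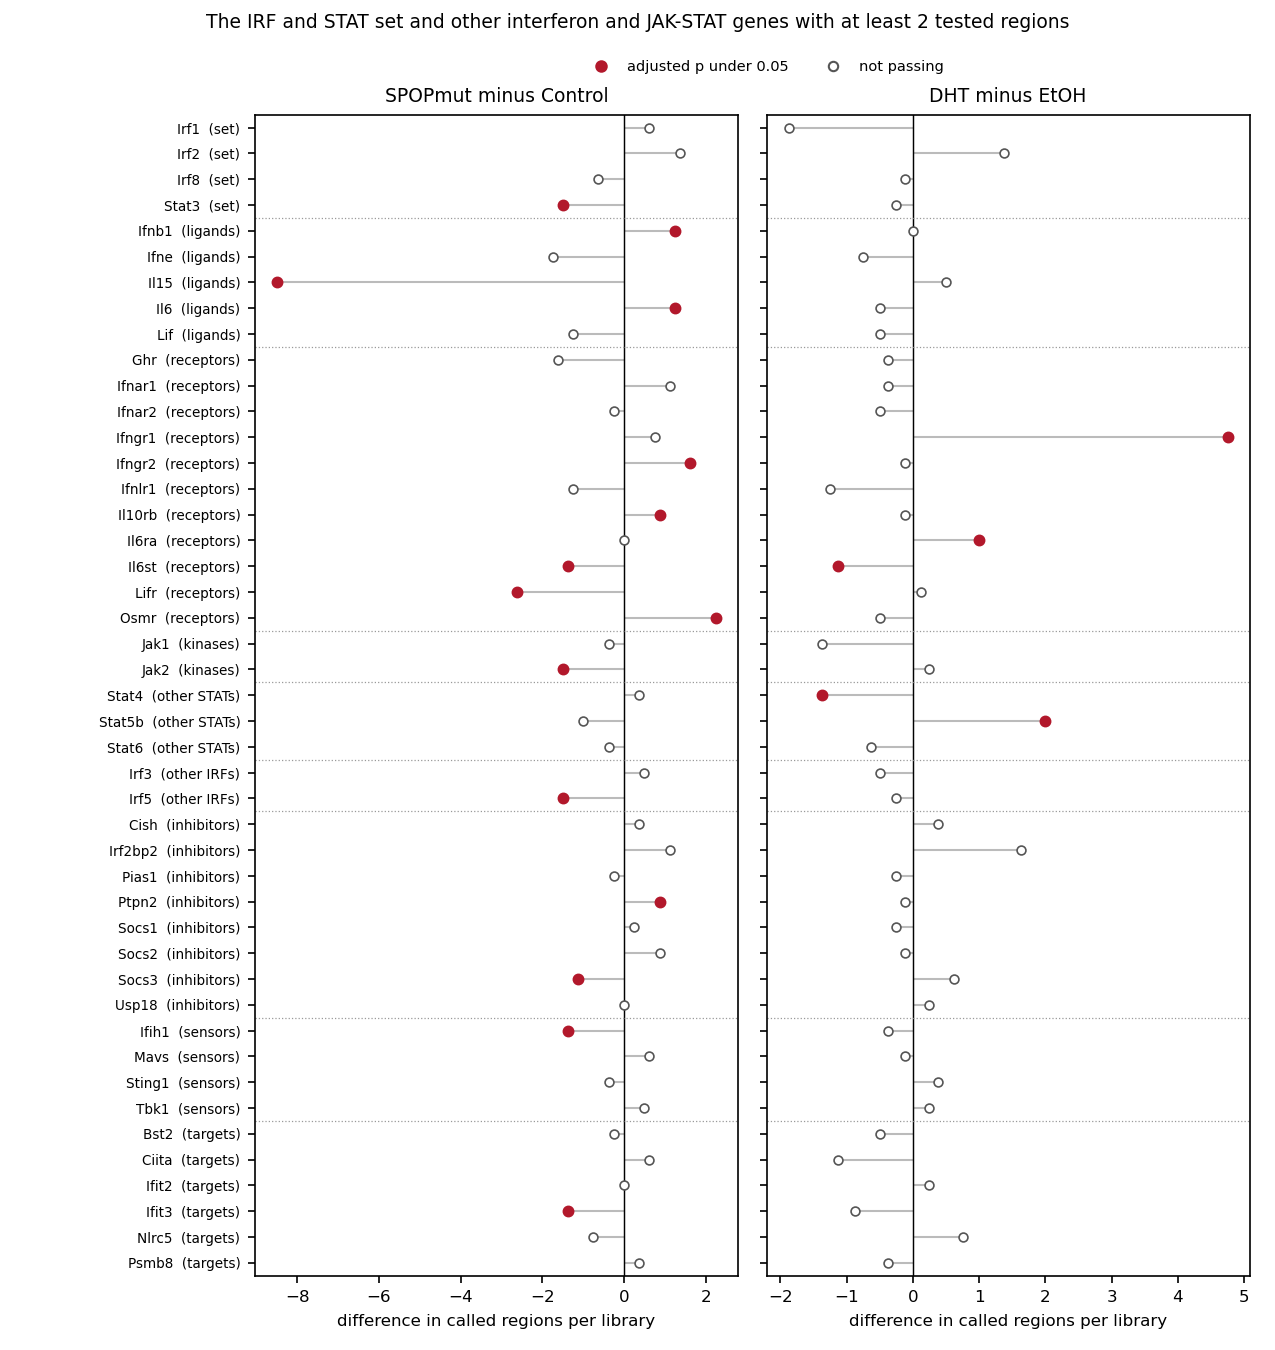
Difference in called regions per library, SPOPmut minus Control (left) and DHT minus EtOH (right), for the 4 testable genes of the IRF and STAT set and 41 of the 43 other tested pathway genes by role; filled points passed at an adjusted p under 0.05. Stat3 is the only filled point of the set, and the passing pathway genes lie on both sides of 0.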

How the data were processed

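Peak lists of 16 libraries were used as deposited. Per the submitters' processing notes the authors aligned reads to mm10 with Bowtie2 2.3.4.1, handled them with SAMtools 1.8 and called peaks with Genrich (version not given in the sources used here). One list was deposited per library, so peaks were called for each library separately. The authors deposited with each peak a signal (the area over the caller's significance threshold, just over 200 at the lowest), a -log10 p at the summit and a whole-number score. The score was not used here, the signal served as a filter in 1 alternative, and the -log10 p was ranked within its library. Read counts are not part of the lists, so depth is unknown and no counting interval is given. The labels name no batch.

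A library with a peak in a region was scored as calling it. Regions called in at least 2 libraries were tested, and genes with at least 2 such regions. Gene bodies came from RefSeq (GRCm38.p6), and where several bodies covered a midpoint the shortest gene was taken. Exons and introns were not analysed here. Genes were tested by an exact permutation test of the number of called regions within the other factor (4900 arrangements) and regions by an exact stratified test, both two-sided, with Benjamini-Hochberg adjustment over all genes or regions and a call at an adjusted p under 0.05. Differences in the DHT effect were tested by permuting treatment within genotype. That shuffling assumes no DHT effect in either genotype, so an effect shared by both can raise its p-values. Subtracting the mean DHT effect first was therefore run as an alternative. The computations used Python 3.11.15, NumPy 2.4.6, pandas 2.3.3, SciPy 1.17.1 and Matplotlib 3.10.9 and were tested on simulated data. The same test per region and the counts at Stat5b and Ifngr1 were added after seeing the data. Sequences and start windows are RefSeq's.

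A few pathway genes are not reported here. The text names all 8 genes, pathway genes that passed (at most 3 per role, by smallest p and then largest change; further receptor genes are named to complete a count), regions at starts, regions that passed or separated 2 groups, and the most alike gene. The other varying regions of Stat3, Irf1, Irf2 and Irf8 that are named were chosen after their values were seen. The 8 genes, the lists and the tests were chosen with earlier results of these data known. Alternatives were a stricter signal, equal list length, 50% cover, 1-library regions kept, a gene limit of 25 kb, gene bodies with 10 kb on either side, shares, a chromosome correction, a replicate block, subtraction of the mean DHT effect, and leaving out each library. Every pair of lists differed by at least 4920 regions, so no list was a copy of another. Each library was counted as its own replicate, although the labels do not say whether replicates were separate cultures or animals.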

Additional observations from a re-analysis of the deposited data

Results flagged for a closer look

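Within groups of 4 libraries, 20 sets of called-region counts were checked for a value apart from the rest, and 5 were found. Chance alone puts about 1 in 20 groups on such a list, and counts that are mostly tied make a single different value stand apart. Irf1 had 7 called regions in replicate 2 of SPOPmut with DHT, where the other 3 libraries had 9, and 8 in replicate 1 of Control with DHT, where the others had 7. Irf2 had 21 in replicate 1 of SPOPmut with EtOH, where the others had 20. Irf8 had 3 in replicate 4 of Control with EtOH, where the others had 4. With regions called in 1 library kept, that library had 5 at Irf8 and the others still had 4. Stat3 had 9 in replicate 3 of Control with DHT, where the others had 8. The Stat3 difference between genotypes passed whichever 1 of the 16 libraries was left out (adjusted p 0.00795 to 0.0346, exact permutation test).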

How the results depend on the processing

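Genes of the set that differed by genotype numbered 1, and 2 under each of these settings: a signal area of at least 400 (with Irf1), 50% cover or 1-library regions kept or shares of called regions (with Irf8), and a 25 kb limit, 10 kb either side of the body or the chromosome correction (with Irf2). Leaving out 1 library gave 1 to 2. Genes that differed by DHT numbered 0, 2 at equal list length (Irf1 and Irf2), and 1 at 50% cover, with shares and with the chromosome correction (Irf1) and within 10 kb either side (Stat5a). Leaving out 1 library gave 0 to 1. The DHT effect differed between genotypes at 0 genes of the set under every setting. Over all genes the numbers moved as well. As reported 3528 differed by genotype and 959 by DHT. Under the other settings these were 1839 to 5501 and 0 to 2395, and with 1 library left out 3579 to 3784 and 957 to 1107. Regions of the set that differed by genotype numbered 2, 3 at 50% cover, and 1 within 25 kb, which leaves the Irf1 region unassigned. Those that differed by DHT numbered 2, 3 at equal list length (with the Irf1 region at 9.9 kb, lower with DHT), 0 at a signal area of at least 400, 1 at 50% cover and 1 within 25 kb. Leaving out 1 library gave 2 to 3 in both. With the replicate number as a block (exact sign-flip test over 8 same-numbered pairs, smallest p 0.00781) 0 regions differed by genotype and 0 by DHT, as in the whole genome, while Stat3 still passed (-1.50, adjusted p = 0.0476) and no other gene of the set did. Likeness by number was uneven: correlations of same-numbered deviations ran from -0.266 to 0.391, and 12 of 24 were over 0.1. These were all 6 pairs of number 2 (0.171 to 0.391) and all 6 of number 3 (0.142 to 0.216), and none of numbers 1 and 4. The same-numbered library was the best match in all 6 pairs of number 2 and in 3 of number 3. Number 2 also had the shortest list of each group (58800 and 60661 peaks in SPOPmut with DHT and EtOH, 58038 and 57245 in Control with DHT and EtOH). What libraries of 1 number share was not tested. No difference changed direction where it passed before or after a change of setting. Differences that did not pass could do so. Irf1 by genotype, reported at +0.62, was -0.75 with 10 kb either side of the body (exact permutation, adjusted p = 0.112). Stat3 by DHT ran from -0.5 to +0.5 over the other settings and never passed. Pathway genes higher and lower in SPOPmut numbered 7 and 8, and 10 and 15 with shares, 11 and 14 with the chromosome correction, 3 and 4 with the replicate block, and 5 to 9 and 6 to 10 under the other settings. Leaving out 1 library gave 6 to 8 higher and 7 to 13 lower (13 without replicate 2 of Control with EtOH). Pathway genes higher and lower with DHT numbered 3 and 2, with 0 to 5 and 0 to 6 over all settings and 0 of each with the replicate block. Calls depend on an unknown depth, so an uncalled region may be accessible below the caller's threshold. The cause of these differences was not tested.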

Other observations

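Ifngr1, the gene of the ligand-binding interferon gamma receptor chain, was the pathway gene with the largest DHT difference, and its regions were examined after that was seen. It had 13.8 ± 0.50 called regions in SPOPmut with DHT against 7.5 ± 0.577 in SPOPmut with EtOH, and 11.5 ± 0.577 in Control with DHT against 8.25 ± 0.957 in Control with EtOH (SD, n = 4; DHT minus EtOH +4.75, exact permutation with adjusted p = 0.0119). Its start region was called in all 16 libraries. A region 69.6 kb before the start (chr10:19521805-19522798) was called in 4 of 4 DHT libraries and 0 of 4 EtOH libraries of each genotype (exact stratified p = 0.000408, adjusted p = 0.0231). Regions 66.6 and 65.6 kb before the start were called in the 4 libraries of SPOPmut with DHT and in 0 of the other 12. Neither passed (each with adjusted p = 0.169 for genotype and 0.280 for DHT, exact stratified test). The DHT effect on the Ifngr1 count was not shown to differ between genotypes (exact permutation p = 0.327). A region 28.2 kb before the start ran by genotype, with 0 of 8 SPOPmut libraries and 8 of 8 Control libraries (exact stratified p = 0.000408, adjusted p = 0.00961).

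The start window of Ifne, an interferon of epithelia, was called in 4 of 4 libraries of SPOPmut with DHT and in 0 of the other 12, while the start windows of Ifnb1 and Ifnk were called in 0 libraries. The share of all start windows with the Ifne pattern was not counted. As a gene Ifne passed no exact permutation test (adjusted p = 0.233 for genotype, 0.947 for DHT and 0.927 for the difference in DHT effect).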
